A study of Mus musculus with 6 samples.

Results

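Adrb1, Adra1a, Adra1b, Gnas, Adcy5, Adcy6, Pde3a, Pde4b and Pde4d are 9 genes of the route by which adrenaline and noradrenaline act on heart muscle. They were taken by gene symbol from a table of 78409 genes measured in the heart at 11 months of age, in 3 mice lacking Ybx1 in cardiomyocytes (Ybx1cmKO) and in 3 littermate controls. Each symbol matched 1 row, and all 9 genes passed the filter on low values that left 13717 genes for testing. The Cre driver, the alleles carried by the controls, the sex of the mice and the part of the heart taken are not given in the sources used here. In bulk heart tissue, fewer cells of a type and less RNA per cell cannot be told apart.

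As background, catecholamines bind beta receptors, which act through the stimulatory G protein to switch on adenylyl cyclase, and the cyclic AMP that is formed drives protein kinase A and so the rate and force of contraction. Phosphodiesterases break cyclic AMP down and keep its signal local. The alpha-1 receptors of cardiomyocytes take another route, through Gq and phospholipase C, which is known for its part in hypertrophic growth.

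The 6 libraries held 12270796 to 15141525 counts. Ybx1 was at 849, 810 and 895 normalised CPM (library-size-scaled counts, here adjusted by TMM factors) in control hearts 1, 2 and 3 and at 203, 171 and 110 CPM in knockouts 1, 2 and 3, so the groups followed their labels. Even this difference, a log2 fold change of -2.40 (SE 0.27), did not pass edgeR's quasi-likelihood test over all genes (adjusted p = 0.148), while DESeq2 gave an adjusted p of 2.05e-16. Knockout library 3 stood apart, with 668 deposited CPM of the nuclear RNA Malat1 and a mitochondrial rRNA share of 10.7%, against 3320 to 7920 CPM and 20.5% to 26.3% in the other libraries. Control library 2 had the highest value of both. Xist, the RNA of the inactive X chromosome in female mice, was at 387 and 201 deposited CPM in control heart 1 and knockout heart 3 and at 0.205 to 2.79 CPM in the other 4. The 8 cardiomyocyte markers were present in every library and summed to 21300 to 24900 CPM in controls and 17500 to 20900 CPM in knockouts. All knockout sums lay below all control sums, as did the values of 5.84% of all tested genes. The list was mixed, with log2 fold changes of -0.83 for Ttn, -0.26 for Ryr2, 0.049 for Tnni3 and 0.69 for Pln, and those of its other genes are not given. The cause of the lower sums was not tested.

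None of the 9 genes passed edgeR's quasi-likelihood test at a Benjamini-Hochberg adjusted p of 0.05 over all 13717 genes, and neither did any other gene (0%). At an unadjusted p under 0.05 there were 2 of the 9 genes, Adra1a and Adcy6, where 5.14% of all tested genes lay under it (2.69% higher and 2.45% lower in knockouts). The fold changes of both were below 0. DESeq2 called 0 of the 9 genes and 15 of all tested genes (0.109%). The fitted log2 fold change, knockout relative to control, was above 0 in 5 genes and below 0 in 4, with a median of 0.02, beside 0.01 over all tested genes. Without knockout heart 3 it was above 0 in 2 of the 9, with a median of -0.42, beside -0.008 over all tested genes. Adra1a was the only member whose knockout values all lay on one side of its control values, and 12.1% of all tested genes had groups that did not overlap, 6.28% with the knockouts above and 5.84% with them below.

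**Figure D1:**
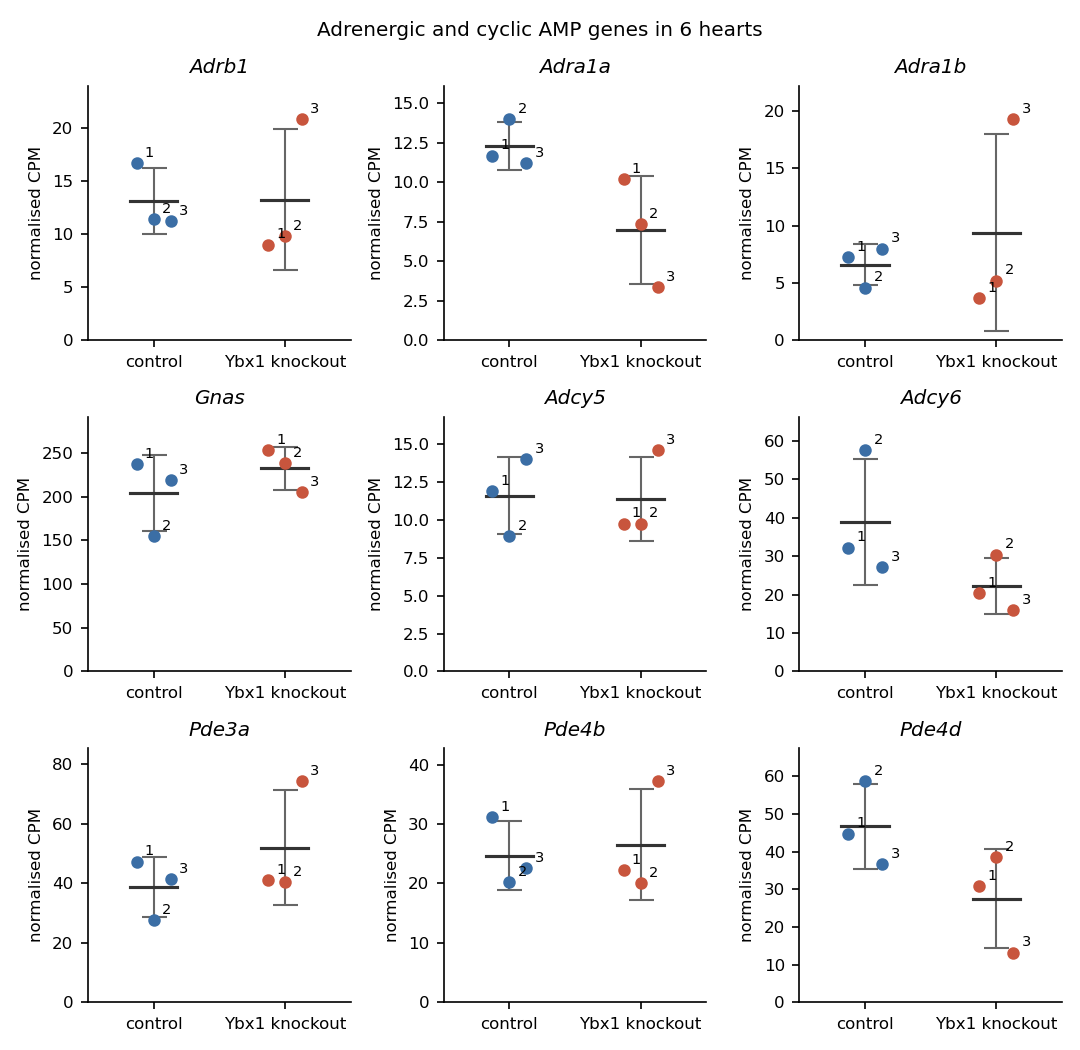
Normalised CPM of the 9 genes (vertical axes, linear and starting at 0) in controls and Ybx1 knockout hearts. Points are hearts labelled by number, bars are the mean and whiskers the SD (n = 3 each). Knockout heart 3 is the highest point for Adrb1, Adra1b, Adcy5, Pde3a and Pde4b and the lowest for Adra1a, Adcy6 and Pde4d.

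Among the receptors, Adrb1 encodes the beta-1 receptor, the main catecholamine receptor of ventricular muscle. It was at 16.7, 11.4 and 11.2 CPM in the control hearts and at 9.01, 9.83 and 20.8 CPM in the knockout hearts. The values overlapped, because knockout hearts 1 and 2 lay below all controls and knockout heart 3 above them. The fitted log2 fold change was 0.02 (SE 0.34, 95% interval -0.75 to 0.79), and it was -0.47 (interval -0.98 to 0.03) without knockout heart 3. The 2 highest values were those of control heart 1 and knockout heart 3, the hearts that expressed Xist. The same order held for Pde3a and Pde4b and for 6.42% of all tested genes, while 7.08% of all genes and none of the 9 had their 2 lowest values in these hearts, and the part of sex in these values was not tested.

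The RefSeq promoter window of Adrb1 (GRCm38.p6, chr19:56721867-56722166, plus strand, 250 bases before the start of the gene and 50 after it) is shown with the first of the 4 windows of Pde4b, at chr4:102421305-102421604 on the plus strand. They are printed because these genes, at 2 steps of the pathway, were highest in the same 2 hearts. Capitals mark TGACG, a part of the cyclic AMP response element, and CCAAT, the inverted core of the Y-box after which Ybx1 is named. Each was sought on either strand, with no overlap between them here.
Adrb1: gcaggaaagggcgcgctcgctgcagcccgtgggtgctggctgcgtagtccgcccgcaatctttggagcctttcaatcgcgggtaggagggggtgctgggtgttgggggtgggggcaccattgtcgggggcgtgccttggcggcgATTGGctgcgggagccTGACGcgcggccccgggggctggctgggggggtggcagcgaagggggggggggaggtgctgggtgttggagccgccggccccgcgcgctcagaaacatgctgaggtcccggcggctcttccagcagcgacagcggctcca
Pde4b: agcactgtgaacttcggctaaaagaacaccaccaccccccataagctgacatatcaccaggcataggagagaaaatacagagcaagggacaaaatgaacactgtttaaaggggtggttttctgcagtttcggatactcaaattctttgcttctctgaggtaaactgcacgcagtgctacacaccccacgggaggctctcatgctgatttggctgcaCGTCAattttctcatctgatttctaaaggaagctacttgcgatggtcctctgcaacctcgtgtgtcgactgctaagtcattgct
In the Adrb1 window TGACG begins 90 bases before the start, and CCAAT is found on the other strand with its match beginning 106 bases before the start. In the printed Pde4b window TGACG is on the other strand, its match beginning 34 bases before the start. No other window of Pde4b held TGACG. Its windows at chr4:102569810-102570109 and chr4:102587308-102587607 held 1 CCAAT each, and the one at chr4:102589593-102589892 held neither. TGACG was present in 20.8% and CCAAT in 37.4% of the 32851 windows in the table, and in 5 and 6 of the 13 windows of these genes. The 13 windows belong to 6 of the genes, and 2 of the 4 Gnas windows overlap each other nearly whole. The full element TGACGTCA was in none of the 13 windows and in 1.79% of all windows. These are matches of letters and say nothing of binding.

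Adra1a encodes the alpha-1A receptor. It was at 11.7, 14 and 11.2 CPM in the control hearts and at 10.2, 7.34 and 3.38 CPM in the knockout hearts. All 3 knockout hearts lay below all 3 controls, knockout heart 1 by a small margin and knockout heart 3 by the most. The means were 12.3 ± 1.51 and 6.98 ± 3.44 CPM (SD, n = 3 each), and the log2 fold change was -0.82 (SE 0.35, interval -1.62 to -0.01). The unadjusted p was 0.0470 and the adjusted p 0.694 in edgeR's test, while an exact permutation test (two-sided) gave p = 0.1, the lowest value possible with 3 against 3 hearts. Without knockout heart 3 the log2 fold change was -0.47 (interval -0.96 to 0.01), smaller by more than 1.5 times. Knockout hearts 1 and 2 still lay below the controls, as they did for 8.55% of all tested genes.

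Adra1b, the gene of the alpha-1B receptor, was high in a single knockout heart. It was at 7.26, 4.61 and 8.0 CPM in the control hearts and at 3.66, 5.22 and 19.3 CPM in the knockout hearts. Knockout heart 3 stood far above the other 5, and knockout heart 1 was the lowest of all. The counts behind these values were 90, 50, 121, 54, 69 and 348 reads, in the same order of hearts. The log2 fold change was 0.51 (SE 0.56, interval -0.77 to 1.79) with all hearts and -0.59 (interval -1.22 to 0.04) without knockout heart 3. In the promoter window at the upstream start of Adra1b (GRCm38.p6, chr11:43901188-43901487, minus strand), printed because it holds the most CCAAT matches of the 13 windows, capitals mark its 3 matches on either strand.
Adra1b: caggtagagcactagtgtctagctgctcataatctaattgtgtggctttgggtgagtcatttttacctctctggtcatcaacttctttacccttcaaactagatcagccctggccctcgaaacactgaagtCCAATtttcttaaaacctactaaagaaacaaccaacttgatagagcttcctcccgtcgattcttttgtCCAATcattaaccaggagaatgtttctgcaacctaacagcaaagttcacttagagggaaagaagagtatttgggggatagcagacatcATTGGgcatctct
The window at the other start of Adra1b held neither TGACG nor CCAAT.

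Among other adrenergic receptor genes, Adra1d had 0 counts in all 6 libraries, which allows up to 0.198 to 0.244 CPM at 3 counts per library. The alpha-2 receptor gene Adra2b was at 0.610 and 0.481 CPM. Adrb3, Adra2a and Adra2c had means of 0.236 CPM or less in either group.

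Gnas, which encodes the stimulatory G protein alpha subunit, was the most abundant of the 9 transcripts and varied least over the hearts. It was at 237, 155 and 219 CPM in the control hearts and at 253, 238 and 205 CPM in the knockout hearts. The groups overlapped, with control heart 2 lowest. The log2 fold change was 0.19 (SE 0.22, interval -0.32 to 0.69), an interval that leaves out a difference of 2-fold either way, and 0.01 without control heart 2. The intervals of 4 of the 9 genes and of 63.5% of all tested genes lay within these bounds. Gnas overlaps the antisense gene Nespas, which had 0 to 3 counts per library, and the library protocol as described does not mark strand.

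The adenylyl cyclases of cardiomyocytes, types 5 and 6, make cyclic AMP from ATP. Adcy5 was at 11.9, 8.94 and 14 CPM in the control hearts and at 9.76, 9.76 and 14.6 CPM in the knockout hearts. These ranges lay nearly on top of each other, and the log2 fold change was -0.031 (SE 0.25, interval -0.59 to 0.53). With scaling by library totals alone it was 0.13, where the median of all tested genes moved to 0.17.

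Adcy6 was at 32.2, 57.6 and 27.1 CPM in the control hearts and at 20.4, 30.4 and 16 CPM in the knockout hearts. Knockout hearts 1 and 3 lay below all controls, while knockout heart 2 lay above control heart 3. The log2 fold change was -0.81 (SE 0.34, interval -1.57 to -0.04), with an unadjusted p of 0.0410 and an adjusted p of 0.694 in edgeR's test and an exact permutation p of 0.2. It was -0.43 without control heart 2 and -0.61 (interval -1.29 to 0.07) without knockout heart 3. On deposited CPM, scaled by library totals alone, the knockout hearts had 22.4, 27.4 and 19.0 CPM and the controls 32.5, 46.4 and 28.2 CPM. The groups did not overlap, as for 8.3% of all tested genes on that scale.

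Of 6 tested adenylyl cyclase genes, 5 had a log2 fold change below 0 and none passed edgeR's test over all genes. Their median was -0.23. Adcy4, a cyclase of blood vessels, was at 13.96 ± 6.19 CPM in controls and 7.75 ± 2.73 CPM in knockouts, highest in control heart 2. Its log2 fold change was -0.85 (interval -1.68 to -0.02), with an unadjusted p of 0.0464 and an adjusted p of 0.694 in edgeR's test. This log2 fold change was -0.57 without knockout heart 3 and -0.44 without control heart 2. Adcy9 was at 22.0 ± 1.84 and 19.3 ± 1.21 CPM and Adcy7 at 7.12 ± 1.93 and 5.92 ± 1.82 CPM. Adcy3 was at 1.26 ± 0.493 and 1.27 ± 0.691 CPM. For both Adcy4 and Adcy9 all knockout values lay below all control values, as for 5.84% of all tested genes. The 8 endothelial markers, whose cells can also hold Adcy4, summed to 331 to 426 CPM in controls and 269 to 528 CPM in knockouts, lowest in knockout heart 3. Their part in the Adcy4 values was not tested.

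Among the phosphodiesterases, Pde3a encodes an enzyme that is inhibited by cyclic GMP and is the target of milrinone. It was at 47.2, 27.5 and 41.4 CPM in the control hearts and at 41.1, 40.4 and 74.2 CPM in the knockout hearts. Knockout hearts 1 and 2 lay within the control range and knockout heart 3 far above it. The log2 fold change was 0.42 (SE 0.30, interval -0.26 to 1.11), and 0.074 (interval -0.43 to 0.58) without knockout heart 3. Pde3a itself had 298 to 1338 counts per library. Of the genes that overlap it in the GENCODE annotation, the antisense Gm28523 had 6 to 14 counts, and Gm43958 and Gm10400, on its own strand, had 83 to 173 and 4 to 40 counts, so reads of Pde3a could be split among them.

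Pde4b and Pde4d encode cyclic AMP-specific enzymes that are inhibited by rolipram. Pde4b was at 31.2, 20.2 and 22.6 CPM in the control hearts and at 22.3, 20.0 and 37.2 CPM in the knockout hearts. The groups overlapped throughout, and the log2 fold change was 0.11 (SE 0.28, interval -0.53 to 0.75), or -0.22 (interval -0.70 to 0.26) without knockout heart 3.

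Pde4d, which in mice is tied to the ryanodine receptor and the calcium pump of the sarcoplasmic reticulum, was at 44.8, 58.7 and 36.6 CPM in the control hearts and at 30.8, 38.6 and 13.2 CPM in the knockout hearts. Knockout heart 2 lay above control heart 3, so the groups overlapped, and knockout heart 3 was lowest. The log2 fold change was -0.76 (SE 0.37, interval -1.6 to 0.07), with an unadjusted p of 0.0688 and an adjusted p of 0.694 in edgeR's test and an exact permutation p of 0.2. It was -0.42 (interval -0.93 to 0.08) without knockout heart 3 and between -1.10 and -0.42 over the 6 fits that left out a library. On deposited CPM the knockout hearts had 33.8, 34.9 and 15.8 CPM and the controls 45.3, 47.3 and 38.1 CPM, without overlap. On that scale 8.3% of all tested genes had groups without overlap. The pseudogene Rps3a3 lies within Pde4d on its strand and had 109 to 182 counts per library, beside 239 to 637 for Pde4d.

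**Figure D2:**
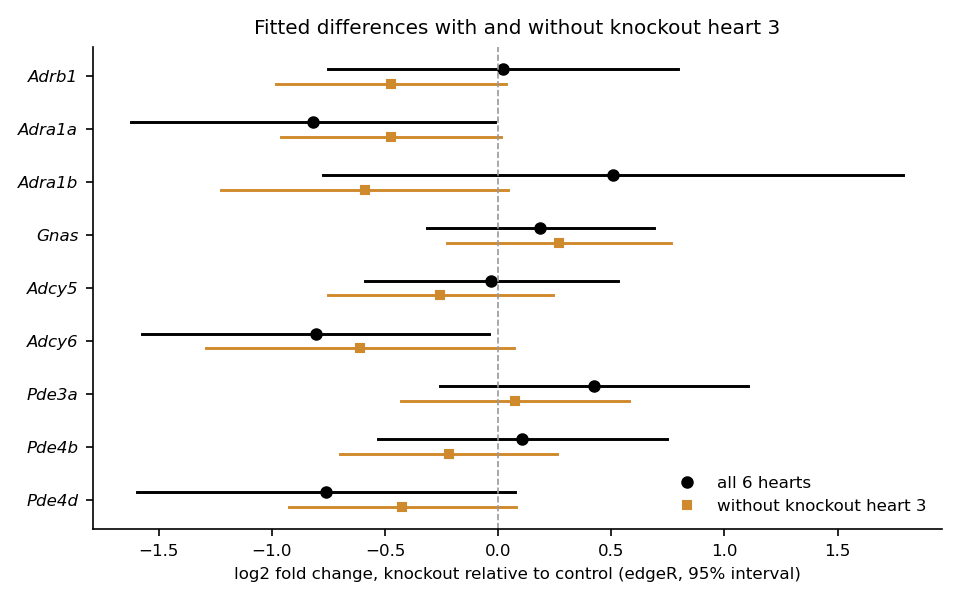
Fitted log2 fold change of each gene, knockout relative to control (horizontal axis), with its 95% interval from edgeR, for all 6 hearts (black circles) and without knockout heart 3 (orange squares). Without that heart every one of the 9 intervals includes 0, and the point estimates of Adrb1, Adra1b and Pde4b change from above to below 0.

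Of 15 tested genes for enzymes that hydrolyse cyclic AMP, 10 had a log2 fold change below 0 and 5 above, with a median of -0.18, and none passed edgeR's test over all genes. Pde7a, a cyclic AMP-specific enzyme, was at 67.5 ± 21.8 CPM in controls and 38.8 ± 18.3 CPM in knockouts (SD, n = 3 each, log2 fold change -0.80, interval -1.66 to 0.06, and -0.48 without knockout heart 3). Pde4a was at 64.2 ± 1.31 and 61.6 ± 5.69 CPM, and Pde1c at 37.8 ± 7.72 and 42.5 ± 4.58 CPM. Pde8a was at 17.7 ± 1.24 and 18.1 ± 2.78 CPM, and Pde2a at 15.6 ± 3.45 and 12.7 ± 3.03 CPM. The remaining 8, Pde1a, Pde3b, Pde4c, Pde7b, Pde8b, Pde10a, Pde11a and the untested Pde1b, had control means of 0.672 to 6.23 CPM. Pde7b, at 2.79 ± 0.695 and 1.59 ± 0.444 CPM, lay wholly below the controls in the knockout hearts, and Pde3b, at 3.02 ± 0.274 and 3.64 ± 0.544 CPM, wholly above. Of all tested genes 5.84% lay wholly below and 6.28% wholly above.

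Levels of different genes were compared per kilobase of exon. The length was the union of all annotated exons of a gene in GENCODE M21, which is of another build than the authors'. It can exceed the transcript present in the heart, and the scale assumes even coverage. On that scale the control level was 18.2 ± 3.87 CPM per kilobase for Gnas, 5.74 ± 2.41 for Adcy6, 3.89 ± 0.930 for Pde4d, 3.87 ± 0.922 for Adrb1, 3.04 ± 0.797 for Pde3a and 2.34 ± 0.549 for Pde4b (SD, n = 3). Adra1b followed at 1.96 ± 0.528, Adcy5 at 1.62 ± 0.355 and Adra1a at 1.41 ± 0.173 CPM per kilobase. Gnas stood clear of the rest, while each later neighbour in this order lay within the SD of the one before it. The exon union was 3.38 kb for Adra1b and 8.73 kb for Adra1a. By CPM alone Adra1a, with a control mean of 12.3, lay above Adra1b, with 6.62, the reverse of their order per kilobase. Pde4a and Pde7a, at 8.38 and 8.71 CPM per kilobase in control hearts, lay above the 3 phosphodiesterase genes among the 9.

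The spread between hearts was wide in this group of genes. The SD of log2 normalised CPM over the 6 hearts was above the median of all tested genes, 0.332, in 7 of the 9, and it was 0.847 for Adra1b, 0.742 for Adra1a and 0.734 for Pde4d. Knockout heart 3 was the highest or the lowest of the 6 for 8 of the 9 genes, Gnas being the exception, and for 68.2% of all tested genes. Control heart 2 was at an extreme for 6 of the 9 genes and for 53.1% of all tested genes. The other 4 hearts were at an extreme for 13.9% to 30% of all tested genes. Adra1a, Adcy6 and Pde4d were highest in control heart 2 and lowest in knockout heart 3, as were 21.1% of all tested genes. Malat1 and mitochondrial rRNA had their highest and lowest values in the same 2 libraries, and their part in these levels was not tested.

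**Figure D3:**
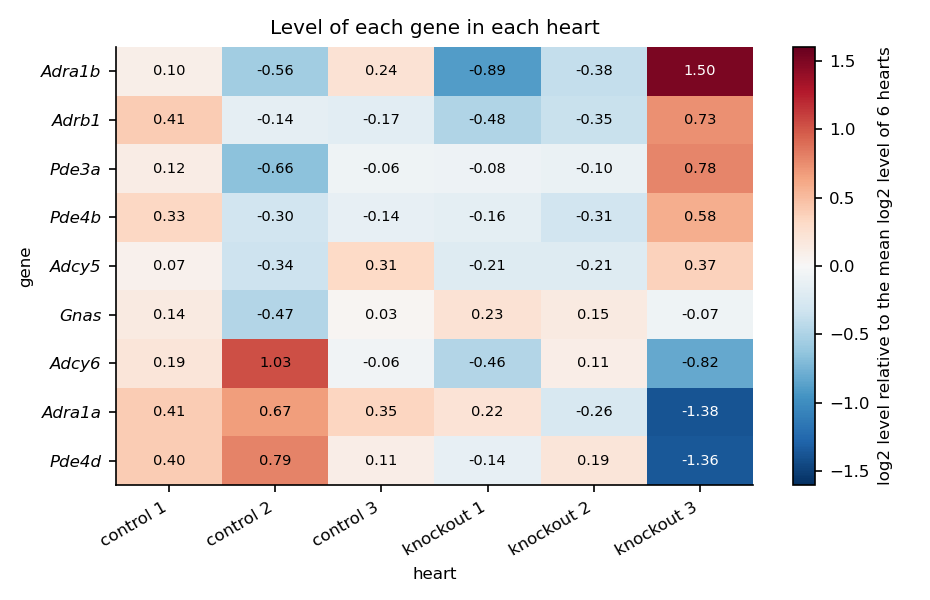
Level of each gene in each heart as a log2 difference from its mean log2 level over the 6 hearts (colour and printed value). Knockout heart 3 ranges from 1.5 for Adra1b to -1.38 for Adra1a, and control heart 2 from 1.03 for Adcy6 to -0.66 for Pde3a.

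For the 7 genes with a wide spread, the protein-coding genes with the most similar profile over the 6 hearts were found by the root mean square difference of centred log2 values. Pde4d was matched most closely, by Akap8l at 0.035 and Clasrp at 0.044, both genes of nuclear proteins. Akap8l was at 30.6, 41.6 and 26.9 CPM in controls and 22.6, 27.8 and 9.31 CPM in knockouts. Pde3a was followed by Inpp4b and Sec61b at 0.07 each, and Pde4b by Nup42 at 0.07 and Pbdc1 at 0.08. Adrb1 was followed by Sgo2a at 0.10 and Tmem64 at 0.11, Adcy6 by Bmp1 at 0.12 and Adgrl1 at 0.12, and Adra1a by Cep95 at 0.13 and Podn at 0.14. Adra1b had the loosest matches, Cox7b at 0.15 and Gja3 at 0.18, and Cox7b too was highest in knockout heart 3, at 764 CPM beside 182 to 339 CPM in the others. These are descriptions of 6 libraries that share the composition given above.

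Ratios of counts within a library need no scaling between libraries, and 4 were compared. The ratio of Adra1a to Adra1b was 1.6, 3.02 and 1.4 in controls 1, 2 and 3 and 2.78, 1.4 and 0.176 in knockouts 1, 2 and 3. Thus Adra1a reads outnumbered Adra1b reads in 5 hearts and were outnumbered in knockout heart 3. The mean log2 ratio differed by -1.10, knockout minus control (exact two-sided permutation p = 0.5), and by 0.063 without knockout heart 3. The ratio of Pde3a to Pde4d was 1.05, 0.468 and 1.13 in controls and 1.33, 1.05 and 5.59 in knockouts, a log2 difference of 1.27 (exact permutation p = 0.3), or 0.52 without knockout heart 3. The ratio of Pde4d to Pde4b was 1.44, 2.90 and 1.62 in controls and 1.38, 1.93 and 0.356 in knockouts, a log2 difference of -0.94 (exact permutation p = 0.4), or -0.21 without knockout heart 3. The ratio of Adcy5 to Adcy6 was 0.369, 0.156 and 0.519 in controls and 0.479, 0.322 and 0.913 in knockouts, a log2 difference of 0.75 (exact permutation p = 0.5), or 0.34 without knockout heart 3. All 4 had an adjusted p of 0.5 by the exact permutation test with Benjamini-Hochberg adjustment over them, and the groups overlapped in each.

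**Figure D4:**
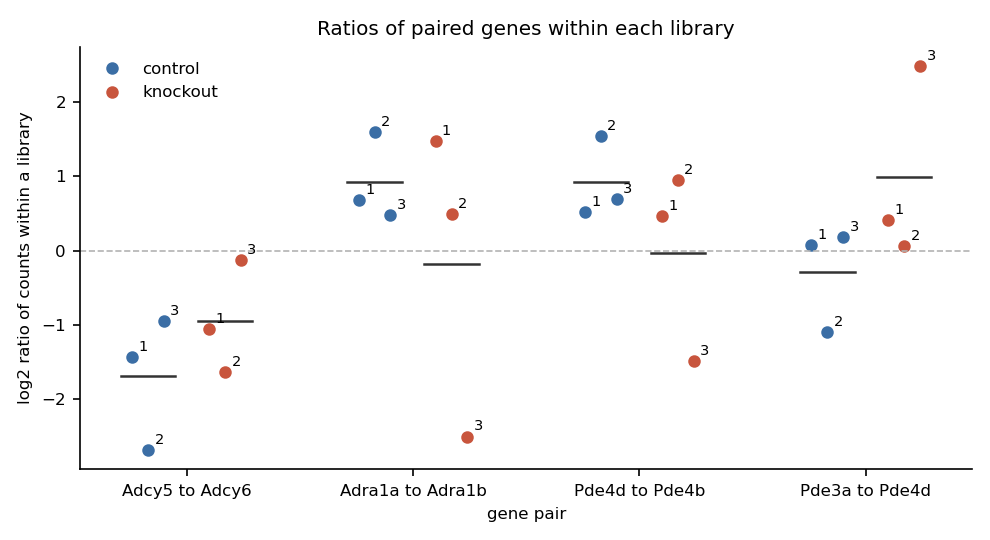
The log2 ratio of counts within each library (vertical axis) for 4 pairs of genes (horizontal axis). Points are hearts labelled by number, blue for control and red for knockout, and bars are group means; knockout heart 3 lies apart from knockout hearts 1 and 2 for Adra1a to Adra1b (-2.50), Pde4d to Pde4b (-1.49) and Pde3a to Pde4d (2.48).

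The wider pathway was described by 13 lists, with no gene in more than 1 of them, that hold 141 tested genes in all. No gene of any list passed edgeR's test over all genes, 70 had a log2 fold change above 0 and 71 below, and the median was near 0 (-0.002). At an unadjusted p under 0.05 there were 14 of the 141, or 9.93%, 5 higher and 9 lower in knockout hearts, beside 5.14% of all tested genes. Adra1a, Adcy4, Adcy6, Pde7b and Ttn were among them, and the rest are named below. With scaling by library totals alone, where the median of all tested genes was 0.17, the medians of 4 lists that lay below 0 were above it, at 0.01 for Gq signalling, 0.04 for anchoring proteins, 0.16 for receptor kinases, arrestins and RGS proteins and 0.002 for phosphodiesterases, all still below that of all genes. Without knockout heart 3 there were 6 of 136 under an unadjusted p of 0.05 in edgeR's test, or 4.41%, beside 3.78% of all genes. Without control heart 2 there were 4 of 141, or 2.84%, beside 1.43%. These were the lowest shares of all settings. The share was 12.8% with DESeq2 (5.08% of all genes) and 8.51% with library totals (4.8%). It was 24.1% with the heart number as a block (13.2%) and 20.1% without knockout heart 1 (12.7%). The lists were not tested as sets.

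All 7 tested subunits and inhibitors of protein kinase A, the main effector of cyclic AMP, had a log2 fold change above 0, with a median of 0.24 and none past the test. The regulatory subunit gene Prkar1a was at 92.8 ± 21.2 CPM in controls and 139.7 ± 41.7 CPM in knockouts (log2 fold change 0.59, interval -0.03 to 1.21, and 0.34 without knockout heart 3), and the catalytic subunit gene Prkaca at 80.9 ± 21 and 110.0 ± 35.2 CPM, with a log2 fold change of 0.44 that was 0.19 when knockout heart 3 was left out. Of 14 tested genes of Gq signalling downstream of the alpha-1 receptors, 13 lay below 0, with a median of -0.17, which was -0.05 without knockout heart 3. The alpha subunit gene Gna11 was at 87.3 ± 7.26 and 80.2 ± 12.2 CPM, and Gnaq at 58.1 ± 5.74 and 53.2 ± 13.3 CPM. With library totals alone both gave log2 fold changes just above 0 (0.027 and 0.035).

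Of 14 tested subunits of Gs and Gi, 11 lay above 0 (median 0.19, and 0.072 without knockout heart 3), with Gnb2 at 193.5 ± 4.68 and 208.7 ± 34.4 CPM. Of 11 tested anchoring proteins, which hold protein kinase A in place, 8 lay below 0 (median -0.11, but 0.015 without knockout heart 3), with Cmya5 at 242.2 ± 45.9 and 180.6 ± 20.7 CPM and Akap9 at 102.3 ± 32.5 and 79.9 ± 17.3 CPM. Of 8 other effectors of cyclic AMP 5 lay above 0 (median 0.45, and 0.20 without knockout heart 3), with Popdc2, a cyclic AMP-binding membrane protein, at 169.0 ± 45.1 and 236.5 ± 46.1 CPM and Bves, of the same family, at 16.1 ± 8.69 and 25.8 ± 15.3 CPM. Of 13 CREB family factors and coactivators 10 lay below 0 (median -0.17), with Crebbp at 68.9 ± 13.3 and 56.9 ± 18.6 CPM and Creb1 at 46.9 ± 14.3 and 39.8 ± 7.41 CPM.

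Of 14 receptor kinases, arrestins and RGS proteins, which end receptor and G protein signals, 6 lay above and 8 below 0 (median -0.01). Rgs5, a pericyte gene, was at 388 ± 45.0 and 350.3 ± 108.6 CPM, and Rgs2 at 33.3 ± 7.82 and 52.4 ± 40.9 CPM, with a log2 fold change of 0.66 that was -0.21 when knockout heart 3 was left out. Of 19 cardiac substrates of protein kinase A and their phosphatases 13 lay above 0, with a median of 0.19, which was 0.086 without knockout heart 3 and 0.017 at its lowest with 1 library left out. Tnni3, the cardiac troponin I, was at 3035 ± 208 and 3140 ± 215 CPM, and titin, Ttn, at 4690, 3620 and 3990 CPM in controls and 2580, 3060 and 1270 CPM in knockouts (log2 fold change -0.83, interval -1.6 to -0.06, and -0.54 without knockout heart 3). Of 11 tested genes in the list of other receptors coupled to Gs or Gi, 7 lay above 0 (median 0.02). The list also holds Ramp1, Ramp2 and Ramp3, which encode receptor accessory proteins and not receptors, and all of these lay above 0. S1pr1 was at 65.4 ± 3.21 and 62.0 ± 23.3 CPM and Ramp2 at 33.2 ± 3.29 and 34.6 ± 5.99 CPM, both also genes of endothelial cells. All 5 tested genes of catecholamine handling lay above 0 (median 0.46, and 0.17 without knockout heart 3), with Maob, an enzyme of catecholamine breakdown, at 20.6 ± 6.89 and 28.1 ± 11.2 CPM. Th, the enzyme that starts catecholamine synthesis, had 0 counts in all 6 libraries.

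Beyond the genes taken by rule, those under an unadjusted p of 0.05 are named here after their values were seen, and for each the adjusted p of edgeR's test was 0.694. Grk5, a kinase that phosphorylates activated beta receptors, was at 19.0, 12.3 and 13.9 CPM in controls and 22.9, 17.8 and 34.4 CPM in knockouts, with knockout heart 2 below control heart 1. Grk4 was at 3.23, 2.12 and 1.92 CPM and at 1.36, 1.06 and 1.05 CPM, without overlap. The kinase inhibitor gene Pkia was at 52.0 ± 8.52 and 82.4 ± 32.1 CPM, and the phosphatase catalytic subunit gene Ppp1cb at 179.5 ± 29.6 and 303.8 ± 119.1 CPM, each highest in knockout heart 3. Without that heart the log2 fold changes of Grk5, Pkia and Ppp1cb were 0.43, 0.30 and 0.39, against 0.73, 0.67 and 0.76 with it. The adenosine A1 receptor gene Adora1 was at 7.22 ± 2.22 and 4.48 ± 0.659 CPM, and the prostacyclin receptor gene Ptgir at 2.33 ± 0.837 and 4.20 ± 0.185 CPM. Ramp1 was at 4.73 ± 1.14 and 7.23 ± 1.56 CPM, Rgs6 at 8.10 ± 0.803 and 5.48 ± 1.28 CPM, and the kinase gene Sik2 at 3.83 ± 0.969 and 1.94 ± 0.496 CPM. Knockout values of Ppp1cb, Ptgir and Ramp1 lay wholly above the controls, and those of Adora1, Rgs6 and Sik2 wholly below. Over the 141 tested genes of the lists, 9 lay wholly above and 12 wholly below, beside 6.28% and 5.84% of all tested genes.

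**Figure D5:**
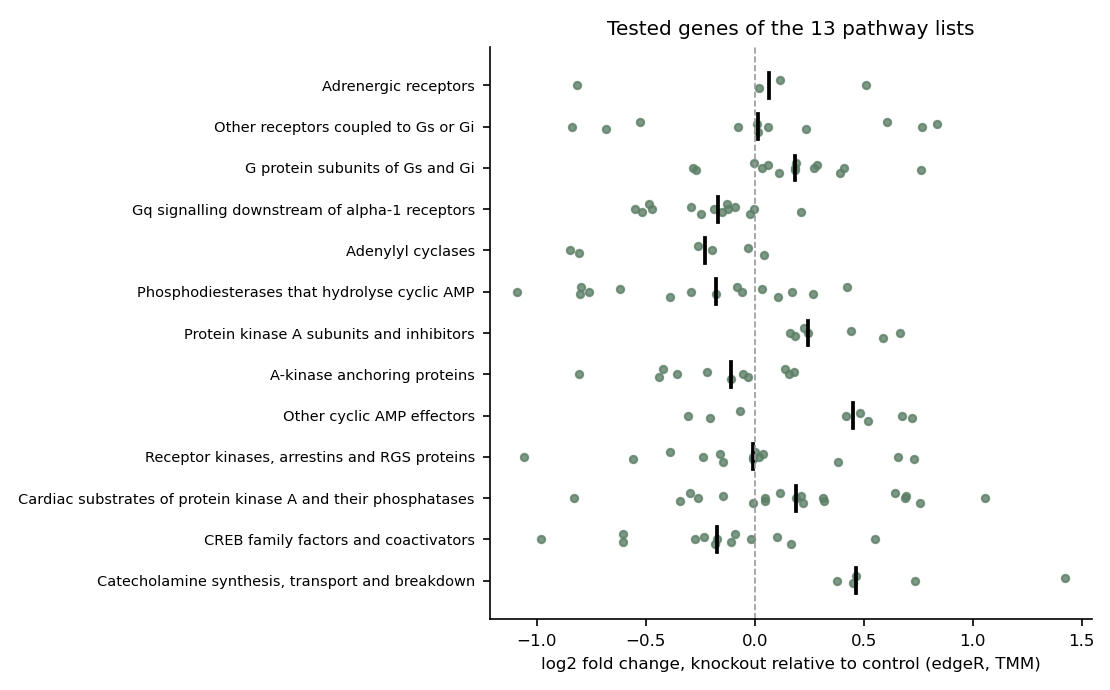
Fitted log2 fold change, knockout relative to control (horizontal axis, TMM scaling), of each tested gene in the 13 pathway lists. Points are genes and the black bar is the median of a list; the medians run from -0.23 for the adenylyl cyclases to 0.46 for catecholamine handling, and no gene shown passed edgeR's test over all genes.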

How the data were processed

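Per the labels' protocols, heart RNA was purified with TRIzol, copied from anchored poly(dT) primers, tagmented and amplified by PCR. Per the submitters' processing notes, STAR 2.7.11, Subread 2.1.1 with featureCounts, edgeR 4.0.16 and SAMtools 1.22.1 were used on mm39, while roles, annotation and strand setting are not given in the sources used here. As values, the authors deposited estimated counts, some with a fraction of a read (in 3 of the 9 genes, in 1 or 2 libraries each), and CPM, which equalled the deposited count over the library total with no other scaling. The table had 0 columns that could not be assigned to a heart.

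Counts were rounded and tested with edgeR 4.0.16 (R 4.3.3), quasi-likelihood, TMM scaling, without a block. A gene was kept where 3 or more libraries reached a CPM of 1. Standard errors came from the F statistic, and p-values were adjusted by Benjamini-Hochberg over all 13717 tested genes with a threshold of 0.05. The fit was tested on simulated counts with 200 genes changed by known folds. It called 53% of the genes changed by a log2 fold of 1 and 100% of those changed by 2. The simulation gave all genes 1 spread and had no library that stood apart, so it does not give the recovery in these data. Ratios had 0.5 added to each count and were tested by an exact two-sided permutation test (scipy 1.17.1). Promoter windows are from RefSeq, and exon lengths are unions of annotated exons from GENCODE M21.

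The genes and lists were chosen with earlier results of these data known. Named genes were the 9, all genes of the receptor, cyclase and phosphodiesterase lists, the 2 most abundant tested genes of each other list, any list gene past the threshold, and the 2 nearest profiles of each gene whose spread was above the median. Alternatives were other scalings, DESeq2 1.42.0, limma-trend (limma 3.58.1) on log2(CPM + 0.5) and log2(CPM + 2), no filter, no mitochondrially encoded genes, each library left out, the heart number as a block, the hearts that express Xist (at least 10 CPM) left out and, added after seeing the data, Xist expression as a covariate. Hearts are separate by their labels, and intervals and limits for single libraries cover counting error only. Values of some genes of the lists are not reported here.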

Additional observations from a re-analysis of the deposited data

How the results depend on the processing

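None of the 9 genes was called under any alternative, and the lowest adjusted p was 0.172, for Adcy6 with no filter (edgeR), so at 3 hearts a group these data limit differences by their intervals only. Over all genes DESeq2 called 15, edgeR with no filter 133, the replicate block 5 and edgeR without the libraries that express Xist 4, against 0, and leaving out 1 library called 0 to 1. Ybx1 was past the threshold with DESeq2 (-2.41), no filter (-2.385), the replicate block (-2.44), without the Xist libraries (-2.19) and without knockout heart 3, and ranged from -2.60 to -2.185 over the fits without 1 library. The number of the 9 genes whose groups did not overlap was 3, against 1, with library totals and both limma fits (8.3% of all tested genes) and without the Xist libraries (26.7%), and 1 to 3 with 1 library left out (15.7% to 32.3%). Their median log2 fold change ranged from -0.42 (without knockout heart 3) to 0.22, and was -0.265 without the Xist libraries, -0.033 with the replicate block and -0.058 with Xist as a covariate.

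For named genes the sign of the log2 fold change, past no threshold in any of them, differed as follows, and the cause was not tested beyond the shift of the all-gene median to 0.17 with library totals and to 0.14 and 0.12 with limma. With library totals Adcy5 was 0.127, S1pr1 0.088, Gna11 0.027, Gnaq 0.035, Pde1a 0.002, Pde4a 0.088, Pde8b 0.064 and Rgs5 0.017. With limma and 0.5 added Adcy5 was 0.12, S1pr1 0.019, Gna11 0.027, Gnaq 0.005, Pde4a 0.097 and Pde8b 0.046. With 2 added they were 0.105, 0.02, 0.027, 0.006, 0.094 and 0.034 in the same order. Without the Xist libraries Adrb1 was -0.27, Adra1b -0.53, Pde4b -0.02, S1pr1 0.12, Ramp2 -0.047, Gnaq 0.007, Pde8b 0.30, Bves -0.099, Rgs5 0.08 and Rgs2 -0.053. Adrb1 was -0.055 with the replicate block and -0.059 with Xist as a covariate, chosen after seeing the data.

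With 1 library left out, the ranges of named genes that crossed 0 were -0.47 to 0.23 for Adrb1, -0.59 to 0.89 for Adra1b, -0.255 to 0.13 for Adcy5, -0.22 to 0.30 for Pde4b, -0.43 to 0.11 for S1pr1, -0.071 to 0.16 for Ramp2, -0.039 to 0.17 for Gnb2, -0.33 to 0.037 for Gnaq, -0.004 to 0.27 for Pde1c, -0.10 to 0.11 for Pde8a, -0.26 to 0.16 for Pde8b, -0.21 to 0.96 for Rgs2, -0.021 to 0.10 for Tnni3, -0.40 to 0.022 for Creb1 and -0.22 to 0.38 for Adcy3, and -1.93 to 0.063 for the log2 ratio of Adra1a to Adra1b. Among list medians, those of adrenergic receptors (-0.47 to 0.25), other receptors (-0.095 to 0.15), anchoring proteins (-0.22 to 0.015) and receptor kinases, arrestins and RGS proteins (-0.22 to 0.088) crossed 0 too. Without the Xist libraries the first was -0.39 and the last pair 0.015 and 0.026, with limma the last pair was 0.053 and 0.13 (0.5 added) or 0.048 and 0.12 (2 added), and with no filter the last lay above 0 as well. Where a group was left with 2 hearts, the spread was still shared across genes. The heart numbers were not shown to pair the samples: deviations of same-numbered hearts correlated at -0.11, 0.45 and 0.58. Those of a control and a knockout heart with different numbers correlated at -0.70 to 0.57.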
